A study of Mus musculus with 4 samples.

Results

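Divergent gene-pair promoter regions are stretches of chromatin bound by TFIIB that lie at the starts of 2 genes transcribed away from each other on opposite strands. A TFIIB region counted as a member if the starts of at least 1 plus-strand and 1 minus-strand gene were no more than 1000 bp from its centre, and the plus-strand gene began to the right of the 5′ end of the minus-strand gene or overlapped it by at most 1000 bp. This rule used positions and strands only, not signal. It found 1076 of the 20364 merged regions of the series (5.28%), which is 10.8% of the 9969 regions centred within 1000 bp of any annotated start (start-site regions). The members held 1097 pairs of 2169 genes, because 21 regions held 2 pairs. The data come from TFIIB ChIP-seq (antibody to Gtf2b, the gene symbol of TFIIB) of whole hearts of C57BL/6 mice in 3 groups of 1 library each, plus 1 library of input DNA for which the labels give no age or condition. The groups were the normal heart at 12 weeks, the hypertrophied heart of 12-week-old males subjected for 4 days to transaortic coarctation (TAC), in which a surgical narrowing of the aorta makes the left ventricle pump against raised pressure, and the postnatal heart at 1 to 2 days. No number of animals per library is given in the labels, and the age label of the TAC library is misspelt, so its 12 weeks come from the treatment protocol. The per-library columns of the tables carry codes that match no label, so no library could be assigned to a condition and all values below are those deposited over the ChIP libraries together. With 1 library per group and with regions that are not replicates, all comparisons are descriptions without a test, and confidence intervals cover counting over regions or genes only. Of 20 marker genes of heart cell types 18 had a start-site region, as did 11070 of the 14469 genes in the table, so this count says little about the tissue label; the 18 included 6 of 7 cardiomyocyte, 4 of 4 endothelial and 3 of 3 leukocyte genes, and Myh6 and Dcn lacked such a region.

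TFIIB is the general transcription factor that joins TATA-binding protein at the core promoter and positions RNA polymerase II over the start site, so its ChIP signal marks places where transcription starts. Mammalian genomes hold many pairs of neighbouring genes in a head-to-head arrangement that share a short promoter between their starts. Such promoters are mostly CpG islands without a TATA box, and their genes are known to be rich in housekeeping functions, among them DNA repair and mitochondrial proteins. Sites of the ETS family, the family of GABP, are known to be frequent in them.

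The stretches between the starts are printed for 13 member pairs that the results below turn on. They are read from RefSeq promoter windows of assembly GRCm38.p6 (250 bases before to 50 bases after each start), on the plus strand, from the start of the minus-strand gene on the left to the start of the plus-strand gene on the right. Starts in that assembly often differ from those of the deposited mm9 tables: of 695 members with a window for both genes, 336 (48.3%) had the same spacing within 50 bp. The stretch of Hspd1 with Hspe1 has 217 bases where the deposited spacing is 472 bp. Those of Tap1 with Psmb9 have 227 and 550, and of Uqcrh with Lrrc41 200 and 395. Those of Hadha with Hadhb have 274 and 342, and of Mrps12 with Sars2 148 and 215. That of Atg9a has 151 where the deposited genes overlap, at a spacing of -61 bp. Capitals mark matches on either strand to the TATA box (TATAAA), the GC box (GGGCGG, bound by Sp factors), the CCAAT box (CCAAT, bound by NF-Y) and the ETS site (CCGGAAG). The first group holds mitochondrial genes that share a promoter with each other or with a gene of another function: the chaperonin pair Hspd1 and Hspe1, the trifunctional protein pair Hadha and Hadhb of fatty acid oxidation, Uqcrh of respiratory complex III, Atp5h of ATP synthase, Sdhd of complex II with the import factor Timm8b, the mitoribosomal gene Mrps27, the import channel gene Timm23, and Sars2 and Mrps12 of mitochondrial translation.
Hspd1/Hspe1, chr1:55087932-55088148, 217 bases: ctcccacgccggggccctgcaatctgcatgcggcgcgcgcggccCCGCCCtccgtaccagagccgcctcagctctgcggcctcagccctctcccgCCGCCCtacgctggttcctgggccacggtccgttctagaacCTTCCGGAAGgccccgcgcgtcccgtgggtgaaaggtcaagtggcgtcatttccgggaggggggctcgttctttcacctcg
Hadha/Hadhb, chr5:30154980-30155253, 274 bases: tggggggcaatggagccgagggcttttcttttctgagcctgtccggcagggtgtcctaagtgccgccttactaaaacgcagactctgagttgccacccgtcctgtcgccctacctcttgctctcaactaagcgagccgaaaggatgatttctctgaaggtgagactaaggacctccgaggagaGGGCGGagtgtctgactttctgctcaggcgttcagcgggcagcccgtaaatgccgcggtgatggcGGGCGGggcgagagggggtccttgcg
Uqcrh/Lrrc41, chr4:116075070-116075269, 200 bases: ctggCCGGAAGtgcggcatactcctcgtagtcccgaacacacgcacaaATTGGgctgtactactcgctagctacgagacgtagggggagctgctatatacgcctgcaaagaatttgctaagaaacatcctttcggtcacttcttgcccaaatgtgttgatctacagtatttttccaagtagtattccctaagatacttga
Atp5h/Kctd2, chr11:115419919-115420126, 208 bases: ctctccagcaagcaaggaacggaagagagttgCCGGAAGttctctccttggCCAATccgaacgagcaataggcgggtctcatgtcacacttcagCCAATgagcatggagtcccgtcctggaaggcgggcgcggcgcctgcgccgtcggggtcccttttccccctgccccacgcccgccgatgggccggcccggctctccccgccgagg
Sdhd/Timm8b, chr9:50603849-50603901, 53 bases: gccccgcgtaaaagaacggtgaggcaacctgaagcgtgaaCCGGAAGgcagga
Ptcd2/Mrps27, chr13:99344678-99344786, 109 bases: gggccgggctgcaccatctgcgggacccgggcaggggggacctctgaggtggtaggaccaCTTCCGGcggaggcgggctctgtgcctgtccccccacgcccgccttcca
Timm23/Parg, chr14:32201891-32201971, 81 bases: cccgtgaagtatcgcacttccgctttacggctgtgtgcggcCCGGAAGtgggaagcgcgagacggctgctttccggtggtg
Mrps12/Sars2, chr7:28741821-28741968, 148 bases: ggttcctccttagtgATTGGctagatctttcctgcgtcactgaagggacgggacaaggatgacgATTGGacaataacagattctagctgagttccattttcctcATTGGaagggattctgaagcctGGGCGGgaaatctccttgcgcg

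The second group shows members that stand out for other reasons: Psmd13 (a proteasome lid subunit) with Sirt3 (a mitochondrial deacetylase) and Tap1 with Psmb9 (peptide transport and immunoproteasome) as known bidirectional promoters, a histone pair that holds a TATA box, the member with the highest peak value (Ifrd1), and a member without a CpG island (Atg9a, an autophagy membrane protein gene).
Sirt3/Psmd13, chr7:140882309-140882394, 86 bases: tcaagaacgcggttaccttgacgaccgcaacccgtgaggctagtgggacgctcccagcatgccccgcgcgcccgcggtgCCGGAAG
Psmb9/Tap1, chr17:34187330-34187556, 227 bases: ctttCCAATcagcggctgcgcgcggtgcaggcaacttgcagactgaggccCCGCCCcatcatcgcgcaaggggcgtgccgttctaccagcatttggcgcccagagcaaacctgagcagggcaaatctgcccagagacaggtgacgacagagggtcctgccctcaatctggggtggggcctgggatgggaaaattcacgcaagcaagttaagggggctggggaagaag
Hist1h2ae/Hist1h2bg, chr13:23571220-23571400, 181 bases: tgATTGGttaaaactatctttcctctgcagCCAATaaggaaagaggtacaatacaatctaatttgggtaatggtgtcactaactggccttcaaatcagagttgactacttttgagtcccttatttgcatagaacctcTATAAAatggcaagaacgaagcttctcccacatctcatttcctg
Ifrd1/EG629820, chr12:40223189-40223364, 176 bases: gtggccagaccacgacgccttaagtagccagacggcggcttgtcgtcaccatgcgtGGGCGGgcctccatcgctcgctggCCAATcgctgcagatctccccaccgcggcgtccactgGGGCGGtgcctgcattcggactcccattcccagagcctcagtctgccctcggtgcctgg
Atg9a/D1Ertd161e, chr1:75192010-75192160, 151 bases: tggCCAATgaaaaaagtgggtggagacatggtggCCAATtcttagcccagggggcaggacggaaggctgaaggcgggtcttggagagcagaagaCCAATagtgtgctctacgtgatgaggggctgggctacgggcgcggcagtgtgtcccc

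The starts of a divergent pair lay close together. The median distance between them was 180 bp, with quartiles of 71 and 351.5 bp, and 560 members (52.0%) had starts 0 to 300 bp apart. In 888 members (82.5%) the genes did not overlap. In the other 188 (17.5%) the 5′ ends overlapped. The widest pair was Tmem69 and Gpbp1l1 at 1800 bp, and the narrowest was Tmem142a (now Orai1, the calcium channel of store-operated entry) with a predicted gene at 0 bp. The largest overlap was that of Manbal with a predicted gene, at a spacing of -985 bp. Pairs in which both genes were protein-coding in RefSeq, 790 members (73.4%), had a median spacing of 221.5 bp and overlapped in 9.24% of cases. The 286 members with at least 1 gene that was not coding or not matched had a median of 66 bp and overlapped in 40.2%. At the edge of the rule, the region of Smc4 and Ift80 had its centre at -985 bp from the start of Ift80 and was inside, and that of Sart3 and Iscu had it at -1008 bp from the start of Sart3 and was outside. A further 13 regions had starts of both strands within 1000 bp but overlapped by more than the rule allows.

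**Figure D1:**
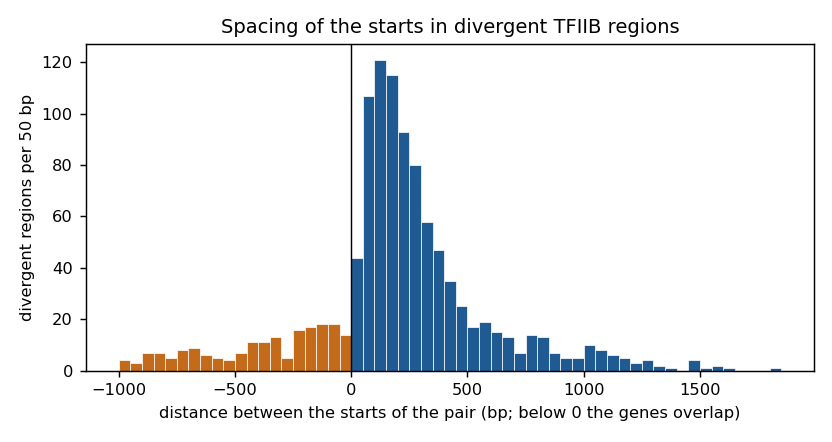
Histogram of the distance in bp between the starts of the 2 genes of each of the 1076 divergent regions, in bins of 50 bp; bars below 0 are pairs whose genes overlap. Most regions lie between 0 and 300 bp, and few reach beyond 1000 bp.

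Sharing of a region by neighbouring starts is largely set by the rule, which takes starts up to 1000 bp on either side of a centre. Head-to-head pairs in which each gene had a start-site region shared it in all 732 cases with starts less than 500 bp apart and no overlap, and in 0 of 32 cases from 2000 to 3000 bp, and the rule fixes or nearly fixes both counts. Where the rule allows either outcome, pairs from 1000 to under 1500 bp shared a region in 44 of 53 cases (83.0%), and from there to under 2000 bp in 5 of 18 (27.8%). Of 748 pairs of coding genes in RefSeq with divergent starts within 1000 bp, 580 (77.5%) had a start-site region at both starts, 115 (15.4%) at 1 start only and 53 (7.09%) at neither. A region at either start usually counts for both genes, so the coverage of such genes, 85.1% of 1483 against 44.4% of 16009 other coding genes, is raised by construction.

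Divergent regions were richer in CpG islands than other start-site regions. A CpG island, a stretch of CpG-dense DNA typical of broadly expressed genes, lay in 1018 members (94.6%, exact 95% interval 93.1 to 95.9%), against 82.5% of the 8893 other start-site regions and 83.8% of all start-site regions. Most members, 957, held a single island, 57 held 2 and 4 held 3. More than 1 island was most frequent in the widest pairs: 20 of 48 members with starts 1000 bp or more apart (41.7%) had at least 2, against 3 of 236 (1.27%) from 100 to under 200 bp. Regions with 2 or more starts on the same strand, 104 in all, held an island in 88.5%.

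Members were also built from more called intervals and were longer than the other start-site regions as a whole. Intervals are the peaks called in the libraries, which the deposited tables merge into regions. Members of 1 interval numbered 110 (10.2%, exact 95% interval 8.48 to 12.2%), against 20.9% of the other start-site regions and 19.7% of all start-site regions. Members of 3 or more intervals were 69.9%, against 54.3% of the others and 56.0% of all start-site regions. Exactly 3 intervals, the number of ChIP libraries, was the most frequent state, with 680 members (63.2%) against 48.4% of the others; whether each library gave 1 of them was not examined, because libraries were not identified. The highest number was 8, in the region of Tshz1 and Zadh2. The median length was 1613 bp against 1396 bp. Regions with several starts on the same strand were close to the members in these measures, with 3 or more intervals in 67.3% (70 of 104), exactly 3 in 61.5%, 1 interval in 14.4% and a median length of 1527 bp. Among pairs that did not overlap, the median length ran from 1458.5 bp from 100 to under 200 bp to 2321.5 bp at 1000 bp or more. The longest member, 5671 bp, lay at Wdr81 and LOC100042498, the gene Mir22hg in RefSeq, and the shortest, 286 bp, at a pair of Rik genes.

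Where a region had a value of its own, TFIIB peak values at divergent starts were seldom low. The authors' peak value is 1 number per gene, the highest in any library over all regions of the gene, on a scale that is not stated; it belongs to a region only where a gene has no other region, which held for 793 members and 4459 other start-site regions. Over those, the median peak value was 36 in members (quartiles 28 and 45) and 31 in the others (quartiles 21 and 43). The difference lay at the low end: 7.94% of members had a peak value under 20, against 20.7% of the others, while 1.64% and 1.82% reached 100. The highest value was 195 in members and 260 in the others. Within CpG-island regions of equal interval number the medians were 23 and 18 for 1 interval, 30 and 26 for 2, 39 and 40 for 3, and 43 and 43 for 4 or more, members first. Regions of 3 intervals with an island thus had nearly the same median in both classes. Same-strand multiple-start regions had a median of 36.5 over 76 regions. A member has at least 2 genes, so it more easily has a value of its own: 793 of 1076 members did, against 4459 of 8893 others. Over all regions, the median of the lowest peak value among the genes of a region was 37 in members and 34 in the others. Both genes of a pair carried the same peak value in 916 members (85.1%), since they share the region; where they differed, 1 of them had a higher region elsewhere.

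**Figure D2:**
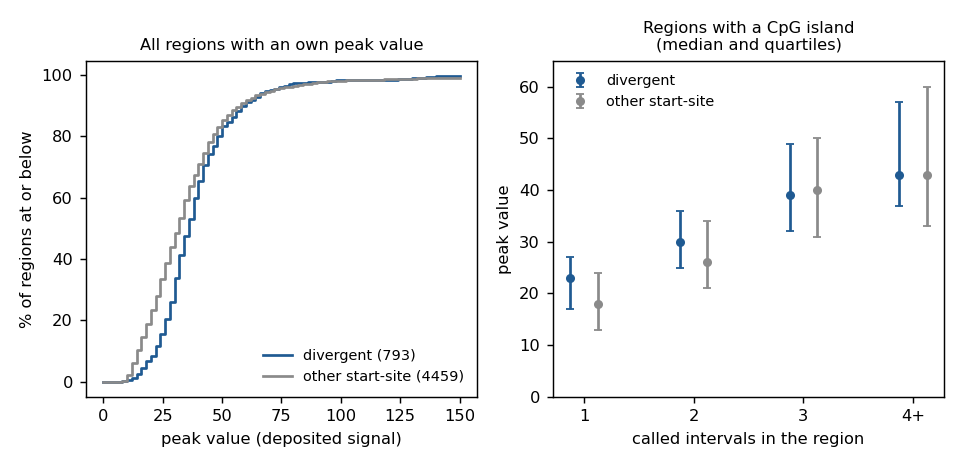
Left, cumulative share in % of regions at or below each deposited peak value for 793 divergent and 4459 other start-site regions; right, median with quartiles (bars) of the peak value in regions with a CpG island, by number of called intervals. The left curves part below a value of about 50, and the medians on the right are close at 3 intervals, 39 against 40.

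The called intervals gave positions of TFIIB peaks within the shared promoter. The gene table gives the distance of every interval to the start, and all 2894 intervals of the members could be placed. Of these, 1300 (44.9%) lay between the starts. Over all intervals, the median distance to the nearest start was 56 bp, against 82 bp in regions with a single start, and 68.8% lay within 100 bp of a start against 55.7%; an interval with 2 starts to choose from is nearer to some start by construction. With starts less than 200 bp apart and no overlap, the intervals formed 1 group over the midpoint, with 62.5% within 100 bp of it. With starts from 200 to under 500 bp apart the share was 24.7%, and with starts 500 bp or more apart 9.72%. Within a wider pair, all intervals were mostly nearest the same start, at whatever distance. Of 449 members with starts at least 200 bp apart and at least 2 intervals, 289 (64.4%) had every interval nearest the same start. This was the minus-strand start in 157 of them and the plus-strand start in 132. The other 160 (35.6%) had intervals nearest both. Of 163 members with starts at least 500 bp apart, 31 (19.0%) had an interval within 150 bp of each start. In 103 (63.2%) an interval lay within 150 bp of 1 start only, and in 29 (17.8%) of neither. The 163 include members of 1 interval, which cannot lie near both starts: 12 with starts under 1000 bp apart and 7 with wider starts.

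**Figure D3:**
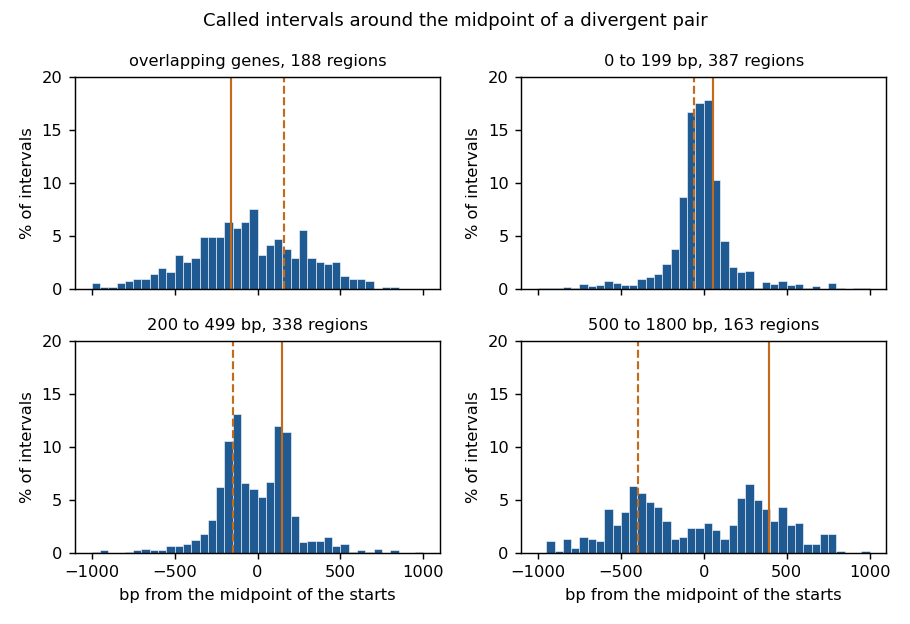
Share of called intervals in % per 50 bp against the distance in bp from the midpoint of the starts, for 4 classes of spacing; the dashed line is the minus-strand start and the solid line the plus-strand start at the median spacing of the class. With starts under 200 bp apart the intervals form a single hump at the midpoint, and above that a hump near each start.

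Interval positions leaned to the left on the chromosome whatever the strand. In regions with a single start, intervals had a median position of -18 bp for plus-strand genes and 12 bp for minus-strand genes. In the members, 34.0% of intervals lay outside the pair on the minus-strand side and 21.1% on the plus-strand side. Of the gaps above 0 between intervals of a member, 95.3% were multiples of 16 bp, so positions were given in steps of that size.

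Wide pairs showed the division of interval positions gene by gene. Tnnc1, which encodes cardiac troponin C, and Nisch, an imidazoline-receptor gene, have starts 1486 bp apart under a region of 4797 bp and 5 intervals. The first 3 lay 26 bp upstream of the start of Tnnc1, and the other 2 lay 188 and 204 bp inside Nisch. Pigl (GPI anchor synthesis) and Ncor1 (a nuclear receptor corepressor), 1128 bp apart, were also divided, with 2 intervals at 150 and 166 bp past the start of Pigl and 3 at 14 to 78 bp upstream of Ncor1. Yod1 (a deubiquitinase) and Pfkfb2 (a regulator of glycolysis), 1513 bp apart, had 2 intervals near each start. In contrast, all 3 intervals of Hnrpdl (an hnRNP RNA-binding protein gene) and Enoph1 lay 8 bp upstream of Hnrpdl, although the starts are 1137 bp apart. The 3 intervals of Rpl7 and Rdh10, 1475 bp apart, lay 411 to 475 bp upstream of Rdh10, nearer to it than to the ribosomal protein gene.

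In pairs of a coding gene with a gene not coding or not matched in RefSeq, intervals were more often nearest the coding start. Of 73 such members with starts at least 200 bp apart, 40 (54.8%) had every interval nearest the coding start, 16 (21.9%) every interval nearest the other start and 17 (23.3%) were divided. Counted by intervals, 127 of 198 (64.1%) were nearest the coding start. Over all members, 174 genes in pairs were not matched and 102 were long noncoding RNA genes. The kind of many partners is thus unknown, and coding and noncoding starts were not compared. Long noncoding RNA genes made up 4.70% of the genes in pairs against 1.09% of other start-site genes. The genes in pairs were shorter, with a median of 14603 bp against 21325 bp, and 58.2% of them had no other TFIIB region, against 47.5%.

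Among members with a value of their own, the 10 highest ran from 130 to 195. Ifrd1, a transcriptional coregulator induced by stress, had the highest value, 195, at chr12:40948479-40950708, with all 3 intervals 9 bp upstream of its start (its sequence is printed above with that of EG629820, the partner). Slc20a1, a phosphate transporter gene, had 174. A region at chr4:40668655-40670760 had 165; it covers the start of Dnaja1, a cochaperone of the Hsp70 system, the microRNA gene Mirn207 and a predicted minus-strand gene. Zfand5, a zinc-finger gene of protein degradation, had 139, Nfe2l2, the regulator of the antioxidant response, 135, and Rhoa, the small GTPase of the actin cytoskeleton, with Tcta 131. Hnrpdl with Enoph1, and Retsat (a retinol saturase) with Rbed1, had 136 each, and the histone pair Hist2h2be and Hist2h2ac 131. The tenth was a predicted gene with a Rik gene at 130. The partner of Ifrd1, Slc20a1 and Zfand5 was a predicted gene each time. Members in which both genes were coding reached 100 in 5 of 577 cases (0.867%), the other members in 8 of 216 (3.70%); their medians were 35 and 36.

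The lowest values lay in regions of a single interval. P2rxl1 with a Rik gene had 7, Nptx2 with a Rik gene 8, Dio3 (the thyroid hormone inactivating deiodinase) with its antisense gene 9 and Rp2h with a predicted gene 10. Col4a4 of the Col4a3 and Col4a4 pair, collagen IV chains of kidney and lung basement membrane, had 11, from a region of 1 interval and 623 bp with no CpG island; Col4a3 itself carried 47 from another region. The pair of the widespread collagen IV chains, Col4a1 and Col4a2, stood far above, with 141 for both genes, 3 intervals, an island and a length of 3580 bp. Both genes have further regions, 10 and 16 in all, so the 141 need not be that of the shared start.

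Of 18 pairs long known to share a promoter in mammals with both genes in the table, 15 were members, beside 547 of 748 RefSeq divergent coding pairs (73.1%). Hspd1 and Hspe1 had a peak value of 50, 3 intervals and starts 472 bp apart; 2 intervals lay within 9 bp of the start of Hspe1 and the third 49 bp inside Hspd1. Hadha and Hadhb, 342 bp apart, had 66, with 3 intervals 38 to 102 bp upstream of Hadhb. Among DNA repair pairs, Prkdc (end joining) with the replication helicase gene Mcm4 had 37 and Atm (the double-strand break kinase) with Npat (a coactivator of histone genes) 34. The 2 intervals of Atm and Npat were divided, 1 at 90 bp upstream of Atm and 1 at 96 bp upstream of Npat. Surf1 and Surf2 had 68 for both genes, Ppat and Paics of purine synthesis 62 and 38, Sirt3 and Psmd13 42 and 30, and Hars and Hars2, the cytosolic and mitochondrial histidyl-tRNA synthetases, 39 and 58. Gabpa, encoding the DNA-binding subunit of GABP, and Atp5j, an ATP synthase subunit, overlapped by 450 bp and had 48. Tap1 with Psmb9 had 31 and Sars2 with Mrps12 25. The region of Sars2 and Mrps12 was the only 1 of the 15 with a single interval, 249 bp inside Sars2. The pairs that were not members were Brca1 with Nbr1, Trp53 with Wdr79 and Tbp with Psmb1. Brca1 had no start-site region, and its start differs by -3738 bp from that of Nbr1, too far for the rule to join them. Wdr79 had no start-site region. The starts of Tbp and Psmb1 were 1634 bp apart and did not share a region.

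Gene lists by symbol family differed in how often their TFIIB-bound genes lay in a divergent pair. Over all 11070 genes with a start-site region the share was 19.6%. Histone genes stood at 26 of 67 (38.8%, exact 95% interval 27.1 to 51.5%), DNA repair genes at 27 of 72 (37.5%, 26.4 to 49.7%), mitochondrial ribosomal protein genes at 26 of 71 (36.6%, 25.5 to 48.9%) and chaperones at 26 of 71 (36.6%). tRNA and rRNA modification followed at 12 of 36 (33.3%), DNA replication at 14 of 47 (29.8%), mitochondrial import at 7 of 24 (29.2%), oxidative phosphorylation at 25 of 87 (28.7%, 19.5 to 39.4%) and splicing factors at 39 of 154 (25.3%). Near the share of all genes were transcription machinery (22.6%), vesicle traffic (22.4%), cell cycle (22.1%), collagens (4 of 20) and the proteasome (19.0%). Below it were the ubiquitin system at 32 of 218 (14.7%), cytosolic ribosomal proteins at 11 of 78 (14.1%), zinc-finger genes named Zfp at 19 of 202 (9.41%, 5.76 to 14.3%) and sarcomere and hypertrophy genes at 2 of 24 (8.33%, 1.03 to 27.0%). The 2 sarcomere genes were Tnnc1 and Myl4, the atrial light chain gene, which shares its start region with Cdc27 of the anaphase-promoting complex. Genes of 1 list can share a region, so these intervals are too narrow where they do. Noncoding RNA genes (15 of 53, 28.3%), aminoacyl-tRNA synthetases (10 of 37, 27.0%) and translation factors (10 of 57, 17.5%) complete the lists. The intervals of the histone, DNA repair, mitoribosomal, chaperone and Zfp lists did not include 19.6%, and those of the others did. This division is a description and not a test. No allowance was made for the number of lists, and their symbol patterns were tightened after the tables were seen. The 26 histone genes lay in only 13 regions, and the lower limit for oxidative phosphorylation, 19.5%, lay close to 19.6%.

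**Figure D4:**
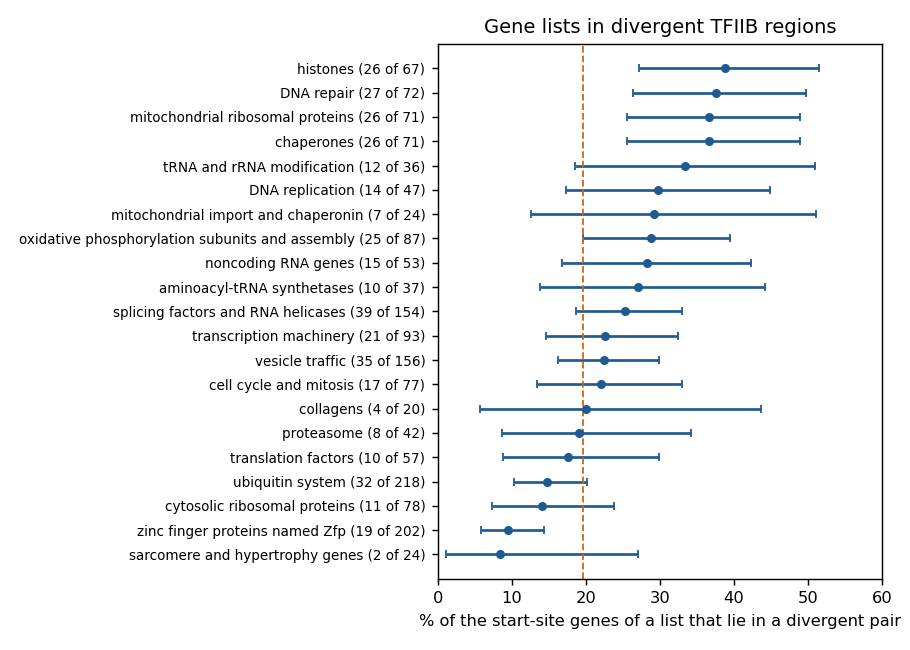
Share in % of the start-site genes of each list that lie in a divergent pair, with exact 95% intervals over genes; the dashed line is the share over all 11070 start-site genes, 19.6%. Histone, DNA repair, mitochondrial ribosomal and chaperone genes lie to the right of it and Zfp genes to the left. The intervals make no allowance for the number of lists.

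Among the lists, only histone and collagen genes mostly paired within their list, and the collagens held only 2 regions. In 12 of the 13 histone regions both genes were histone genes. Of these, 10 joined an H2A with an H2B gene, the proteins that form a dimer in the nucleosome. In the other lists together, the regions with both genes of 1 list were few: Hspd1 with Hspe1, Cryab with Hspb2 and Hspa1a with Hspa1l among chaperones, Col4a1 with Col4a2 and Col4a3 with Col4a4 among collagens, Mrps11 with Mrpl46 among mitoribosomal genes, Hars with Hars2 among synthetases and Rpph1 with Mirn685 among noncoding RNA genes. The 12 histone regions were short, with a median of 792 bp and 7 under 1000 bp, against 84 of 1076 members (7.81%). All 12 held an island, and the peak values of their genes ran from 56 to 188, with both genes at 100 or more in 7 regions. Hist1h2bb and Hist1h3c had the highest, 188, and Hist1h2bg and Hist1h2ae 172; all 4 genes have other regions as well. The histone genes of a cluster have almost the same sequence, 10 of these regions are on chromosome 13, and how reads were divided among copies is not given, so their values are uncertain.

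Genes of the mitochondrial lists seldom paired within their own list, and how many of their partners were mitochondrial was not counted. The list of oxidative phosphorylation held 25 regions, none with both genes in the list, all with an island and 22 of 3 or more intervals. Their median peak value was 40 over 19, against 33 over 35 other start-site regions of the list. Uqcrh with Lrrc41 had 90, Cox15 (haem A synthesis) with Cutc 80, Atp5c1 with Kin 59 and Sdhd with Timm8b 38, the last being mitochondrial on both sides although from different lists. Ndufb5 of complex I and Mrpl47 of the mitoribosome, another mitochondrial pair across lists, shared a region at 39. Mitoribosomal genes had a median of 30 over 17 regions, below the 36 of all members, and 33 over 22 other start-site regions. The highest of the 17 were Mrpl48 with Rab6 at 74 and Mrps27 with Ptcd2 at 59. Mrps11 and Mrpl46, small and large subunit, shared a region at 27. Chaperones had a median of 47 over 15, against 49.5 over 18 other start-site regions of the list. Cct8 of the cytosolic chaperonin had 73 and Bag1, an Hsp70 cochaperone gene, with Chmp5 63, both named after their values were seen. The related genes Hspa1a and Hspa1l had 36 and 35, and whether reads were shared between them was not examined.

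Splicing factors and RNA helicases had a median peak value of 35 over 26 divergent regions, against 36 over all members and 41 over 61 other start-site regions of the list, and a few of their pairs were high. Hnrpa2b1 with Cbx3, the pair whose island is used in human cells as a chromatin-opening element, had 124 over starts 722 bp apart. Hnrpa1 with Cbx5, named here after its value was seen, repeated the arrangement of an hnRNP gene with a heterochromatin protein gene and had 55. Lsm3 (splicing) with Xpc (nucleotide excision repair) had 57. In the transcription machinery, Gtf2h3 of TFIIH with Eif2b1 of translation initiation had 65, and Polr3d of RNA polymerase III with the microRNA gene Mirn320 127. Gas5, host of small nucleolar RNAs, with Zbtb37 had 118 over starts 907 bp apart. Rpph1, the RNA of ribonuclease P, a gene transcribed by RNA polymerase III, lay with Parp2 and Mirn685 in a region at 53.

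Other pairs of the lists joined genes of different processes. Rad9b of the DNA damage checkpoint lay with Vps29 of the retromer at 52, the flap endonuclease gene Fen1 with a Rik gene at 41 and the mitochondrial arginyl-tRNA synthetase gene Rars2 with Orc3l of the origin recognition complex at 47. Anapc10 of the anaphase-promoting complex shared a region with the ribosome-recycling gene Abce1 at 58. Of the cytosolic ribosomal genes, Rpl9 lay with the lipoic acid synthase gene Lias at 61 and Rpl15 with Nkiras1 at 53. Psmc5, an ATPase subunit of the proteasome, and Ftsj3, an rRNA methyltransferase gene, had 45, and the ubiquitin-conjugating enzyme gene Ube2j1 with a Rik gene 65. Among zinc-finger genes, Zfp143, itself a promoter-binding factor, had the highest value of its list, 78.

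The 58 members without a CpG island were weaker and less often called in several intervals. They were of 1 interval in 46.6% (exact 95% interval 33.3 to 60.1%), as were 46.5% of the 1553 other start-site regions without an island. Their median peak value was 25 over 35 regions against 36 over the 758 members with an island. Other start-site regions differed likewise, with medians of 20 over 652 without an island and 33 over 3807 with one. Exceptions were present among the members. Fbxl18 with a predicted gene carried 186, Retsat with Rbed1 136, Adm (adrenomedullin, a vasodilator peptide) with Sbf2 95 and Gnl3 with Pbrm1 55; Fbxl18 and Adm with their partners have further regions, so these values need not be those of the shared start. Cryab and Hspb2, small heat shock proteins abundant in cardiac muscle, had 67 with 5 intervals over 2687 bp and starts 465 bp apart. Its intervals ran from 62 bp inside Hspb2 to 1473 bp inside Cryab, and 4 of the 5 were nearest the start of Cryab.

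Several motifs differed in frequency between the promoters of paired and other genes. In RefSeq windows of 1576 coding genes in pairs, the ETS site CCGGAAG occurred in 451 (28.6%), against 17.9% of 6791 other coding genes with a start-site region and 11.9% of all 17492 coding genes. The share was 29.0% for plus-strand and 28.3% for minus-strand genes. With CpG-island regions only, it was 29.5% against 19.4%. The YY1 site AAGATGGC occurred in 7.93%, 4.42% and 3.22% of windows in the same order, and the element TCTCGCGA in 4.25%, 2.31% and 1.51%. The TATA box was less frequent, at 4.76%, 6.99% and 13.3%. The GC box (69.1%, 67.8%, 46.3%), the CCAAT box (41.0%, 38.3%, 39.0%), the NRF1 site GCATGCGC (5.77%, 5.96%, 3.61%), the cyclic AMP element TGACGTCA (4.19%, 3.42%, 2.34%) and the E-box CACGTG (10.2%, 10.7%, 7.90%) differed less between paired and other TFIIB-bound genes. Both strands were searched, no motif contains another, and the windows of a pair can overlap, so a match can count for both genes. Windows of paired genes had a median of 62.7% G and C against 61.3% and a ratio of observed to expected CpG of 0.855 against 0.775. Of 230 stretches between starts that could be read whole, 71 (30.9%) held the ETS site and 134 (58.3%) the GC box. These stretches vary in length, with a median of 174.5 bases, so their shares cannot be set against those of the windows.

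**Figure D5:**
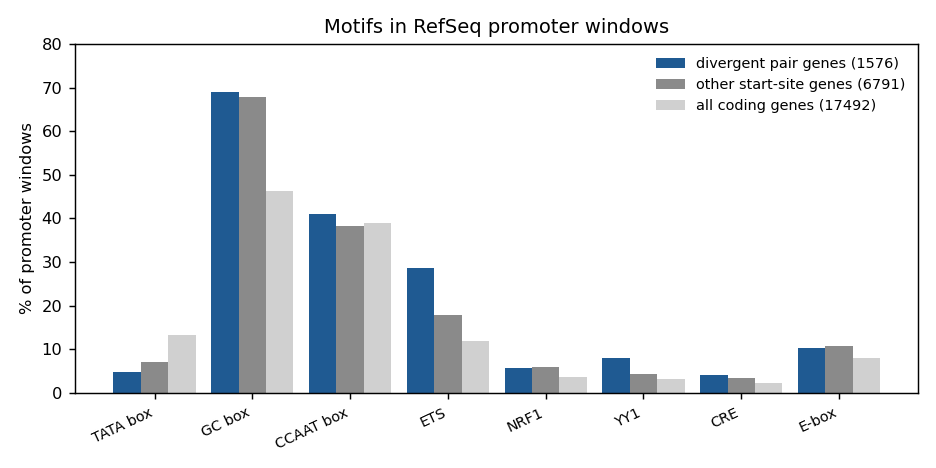
Share in % of RefSeq promoter windows that hold each of 8 motifs on either strand, for 1576 coding genes in divergent pairs, 6791 other coding genes with a start-site region and all 17492 coding genes. The ETS bar is 28.6% in pairs and 17.9% in the others, and the GC box bars are nearly level, 69.1% and 67.8%.

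Among the printed stretches, the ETS site stood in those of Hspd1 with Hspe1 (with overlapping matches on both strands), Uqcrh with Lrrc41, Atp5h with Kctd2, Sdhd with Timm8b, Ptcd2 with Mrps27, Timm23 with Parg and Sirt3 with Psmd13. The stretches of Hspd1 with Hspe1, of Hadha with Hadhb and of Ifrd1 held 2 GC boxes each, and those of Mrps12 with Sars2 and of Atg9a 3 CCAAT boxes each. The histone stretch of Hist1h2ae with Hist1h2bg, with 38.7% G and C the lowest of the 13, held the TATA box beside 2 CCAAT boxes. Over members with an island and windows for both genes, the median peak value was 36 with an ETS site in either window (192 regions) and 37 without (306 regions). With a TATA box it was 42 over 28 regions and 37 over 470 without, while 7 of 44 members with the box (15.9%) and 48 of 618 without it (7.77%) were of 1 interval. Members with a CCAAT box were of 1 interval in 42 of 342 cases (12.3%) and those without in 13 of 320 (4.06%), with medians of 35 and 38. Members with the YY1 site were of 3 or more intervals in 85.9% of 78 cases against 70.0% of 584 without it, with medians of 40 and 36. The element TCTCGCGA (86.1% against 71.1%) and the cyclic AMP element (80.6% against 71.5%) leaned the same way in this share. The NRF1 site (65.4% against 72.5%), the TATA box (59.1% against 72.8%) and the CCAAT box (66.4% against 77.8%) leaned the other way. The GC box, the ETS site and the E-box differed less.

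Leaving out Y, where 0 of 3 start-site regions were members, the members made up between 7.03% of start-site regions (35 of 498 on chromosome 6) and 16.1% (56 of 348 on chromosome 12) by chromosome, and 22 of 264 on X (8.33%). Chromosome 11 held the most, 103.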

How the data were processed

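TFIIB ChIP-seq of 3 heart libraries and 1 input library was deposited as 2 tables, of merged regions and of genes. ChIP, library construction and sequencing were done by Active Motif, per the labels' protocols, and reads were placed on mm9, per the submitters' processing notes. For the aligner, the peak caller, its thresholds, read depths and the merging rule, the record is "not given in the sources used here", so precision by read depth is unknown. The deposited signal is the authors' peak value per gene, a whole number on a scale that is not stated. It was not tested statistically, because each group has 1 library, and 15 columns of per-library values were not used, because their codes match no label.

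Region and gene tables were joined by region. A pair was taken by strand and position, and the closest pair stood for a region with several. Shares have exact (Clopper-Pearson) 95% intervals that cover counting only. Interval positions came from the deposited distances to the start. Promoter windows, gene kinds and current names came from RefSeq (GRCm38.p6), and 1995 of the 2169 gene identifiers matched; no coordinates were converted. The pair rule and motif search were tested on simulated data. Named regions were the 19 known pairs searched, the extremes of peak value, length, interval number and spacing, up to 4 regions of each of 21 gene lists by peak value, the strongest without an island and those at the edge of the rule. Some of these are not reported here. The pairs whose sequence is printed, and a few other pairs, were chosen after their values were seen. Members and lists were chosen with earlier results of these data known, and the symbol patterns of the lists and the motif letters were tightened after the tables were seen. Python 3.11.15, pandas 2.3.3, numpy 2.4.6, scipy 1.17.1 and matplotlib 3.10.9 were used. The alternatives were other distances to the start, other geometries, coding pairs only and regions of exactly 2 genes.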

Additional observations from a re-analysis of the deposited data

How the results depend on the processing

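No paired analysis was possible because each group has 1 library and no test was made. The number of members was 844 with both starts within 500 bp of the centre and 481 within 250 bp, 196 with overlapping genes only and 688 with exactly 2 genes in the region. The share with a CpG island was 96.4% with overlapping genes only, above the interval of the value over all members, and within that interval under the other settings. The shares of 1 interval (9.56 to 10.7%) and of 3 or more (68.6 to 70.5%) and the median peak value (35 to 37) moved less than their intervals under every setting. The median length was 1540 bp within 500 bp and 1437 bp within 250 bp. The median spacing was 164 bp and 141 bp under these distances, 232.5 bp for starts apart only, 222 bp for coding pairs and -335.5 bp for overlapping genes only; the distances and geometries limit the spacing by construction. No read depth, input level or per-library value was analysed here, so differences between adult, TAC and neonatal hearts were not analysed, and a higher number of intervals cannot be told apart from a stronger signal in fewer libraries. A peak value of a gene with several regions need not belong to the shared start.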
